A study of Mus musculus with 2 samples.

Results

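Wnt proteins are secreted, lipid-modified signals of development and connective tissue, and the data here describe 35 mouse genes that make, restrain or read out that signal. They are 8 Wnt ligand genes, 9 genes of secreted antagonists, 8 genes of the R-spondin axis and 10 target genes. The members were taken by gene name from the deposited expression table of 25430 names, which writes them in capitals (SFRP1, SFRP2, LGR5, MYC, AXIN2, WNT5A and so on, given below in mouse style), and all 35 were found, with Wisp1 (now Ccn4) and Wisp2 (now Ccn5) under their older names. Dkk3 had 2 rows, and the row with the higher mean was used. In canonical signalling a Wnt ligand binds a Frizzled receptor and an LRP co-receptor, a cytoplasmic complex built on Axin stops destroying β-catenin, and β-catenin then acts with TCF/LEF factors on target genes. Other ligands such as Wnt5a signal mostly through receptors that do not use β-catenin. Secreted Frizzled-related proteins bind the ligands, and Dickkopf proteins such as Dkk1 bind the LRP co-receptors. R-spondins act with LGR receptors to keep Frizzled receptors on the cell surface.

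RNA was sequenced from primary embryonic fibroblasts of Mus musculus, prepared at E13.5 from matings of Sptbn1+/− mice, replated after confluence and grown in serum-containing medium with no treatment named. There was 1 library of the genotype Wild type and 1 of the genotype Sptbn1 knockout, which the title of the series gives as homozygous; no conditional allele or Cre is named. The labels do not give the number of embryos behind a library, their sex or the passage. With 1 library per genotype no difference has a replicate check, so no p-value or SD of its own is given and every comparison is between 2 libraries, not 2 conditions. The comparison asks how the expression of Wnt genes differs between cultures of these 2 labels, where the targeted gene encodes β2-spectrin, a protein of the membrane skeleton.

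Values are FPKM, fragment counts corrected for transcript length and for the size of the library, so that levels can be compared between genes. A difference is log2((knockout FPKM + 1)/(wild-type FPKM + 1)), called the log2 ratio. It is smaller than the plain FPKM ratio for low genes. Genes whose mean over both libraries was at least 1 FPKM are called measured, 11070 names in all, and a difference of 1.3-fold or more on this scale (0.38 on the log2 scale) was counted. The depth of each library is unknown in absolute terms. From the steps of 3100 low rows, a single fragment carried 1.61 times the FPKM in the knockout that it carried in wild type, so the knockout library was the shallower. Sptbn1 was at 36.6 FPKM in the knockout and 69.6 FPKM in wild type, a log2 ratio of -0.91, so the targeted gene was lower in the library labelled knockout but still listed at 52.5% of the wild-type level. For the fibroblast label, all 10 markers listed for it were measured, led by Col1a1 at 939 FPKM in the knockout and 957 FPKM in wild type, Vim at 546 and 558 FPKM, and Col1a2 at 556 and 562 FPKM. The defining markers of skeletal muscle (Myod1, Myog and Myf5) were listed at 0 in both libraries, and Epcam was at 0 in the knockout and 0.144 FPKM in wild type.

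Of the 35 Wnt genes, 22 passed the limit of 1 FPKM, 12 others were listed above 0 in at least 1 library, and Sp5 was listed at 0 in both. By summed FPKM the targets came first (130 in the knockout, 134 in wild type), then the secreted antagonists (119 and 101), the R-spondin axis (24.2 and 31.1) and the ligands (23.1 and 28.6). Wisp1, which encodes a secreted matrix-associated protein of the CCN family, had the highest mean level, followed by the antagonist gene Sfrp1, another CCN gene, Wisp2, and Dkk3. These 4 genes made up 59.9% of the summed FPKM of all 35 genes in the knockout and 56.0% in wild type. The summed FPKM of the 35 genes was 296 in the knockout and 295 in wild type.

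**Figure D1:**
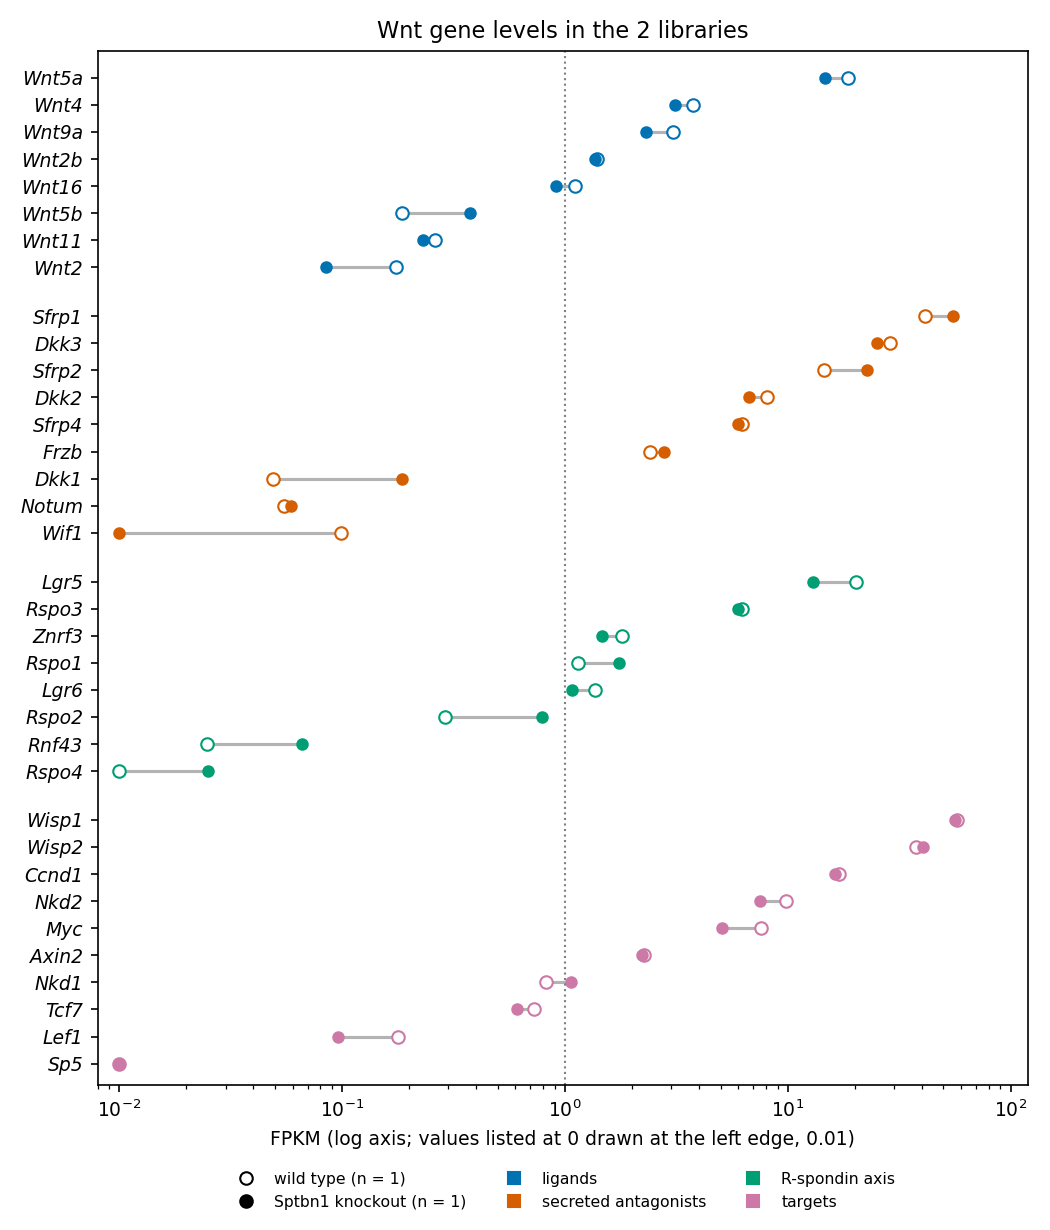
FPKM of each of the 35 Wnt genes (log axis) in wild type (open points) and the Sptbn1 knockout library (filled points), ordered by mean level within each role; grey lines join the 1 value of each genotype, and the dotted line marks 1 FPKM. Sfrp1 and Sfrp2 lie to the right in the knockout and Lgr5 and Myc to the left, while Wisp1 and Axin2 nearly coincide.

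Of the 22 measured members, 2 were higher in the knockout by 1.3-fold or more (Sfrp2 and Sfrp1) and 2 at least 1.3-fold lower (Lgr5 and Myc). Among all measured genes the same limit was passed by 2.79% upwards and 4.14% downwards, so 2 of 22 in each direction rests on very few genes beside that background. No member reached 2-fold, against 0.741% of all measured genes. Below 0 were 17 of the 22, beside 63.1% of all measured genes, and the median log2 ratio of the 22 was -0.10 against -0.05 for all measured genes. The zero point depends on the scaling of the libraries. When the columns were scaled to a common FPKM sum, the median of all measured genes moved to 0.34 and 15 of the 22 members changed sign, none of them with a ratio beyond 0.35 in size. The small RNA row Mir682 held 25.2% of that sum in the knockout and 29.1% in wild type, and Dnaja1 held 0.00135% and 5.59%. Centring on the median gene or scaling to a common upper quartile changed the sign of 5 and 6 of the 22, none with a ratio beyond 0.0546 in size. Directions below are on the deposited scale.

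**Figure D2:**
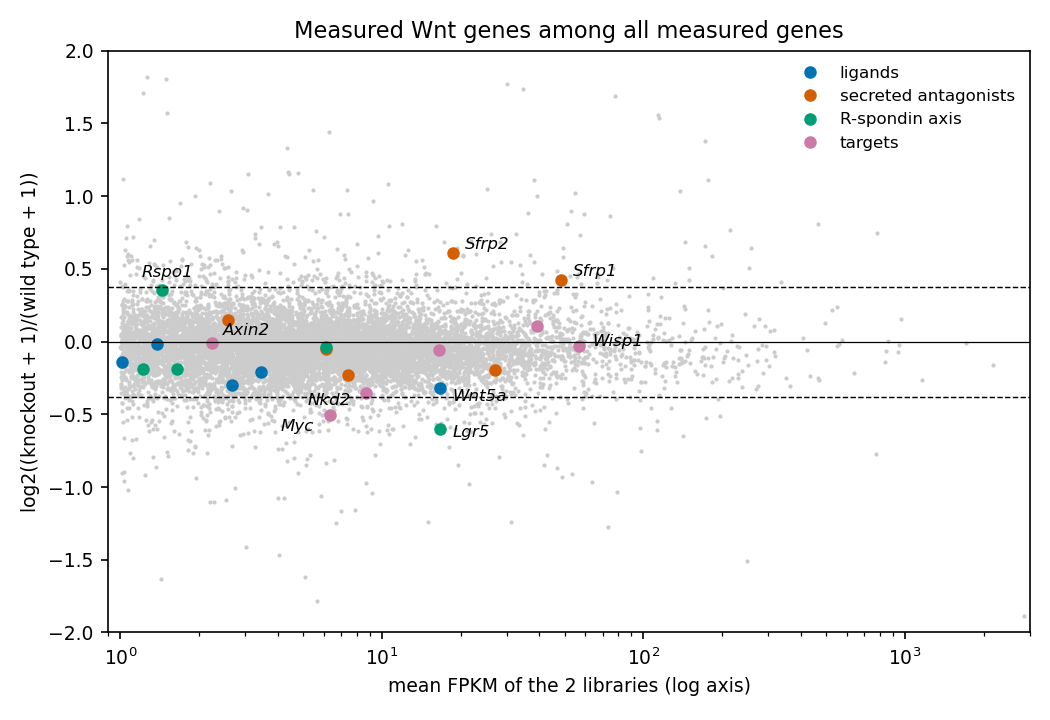
Log2 ratio of knockout over wild type against mean FPKM (log axis) for the 11070 measured genes (grey) and the 22 measured Wnt genes (coloured by role), 1 library per genotype; dashed lines mark 1.3-fold, and 29 genes beyond 2 on the log2 scale are not drawn. Sfrp2 at 0.61 and Sfrp1 at 0.42 lie above the upper dashed line, and Lgr5 at -0.60 and Myc at -0.50 below the lower one.

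**Figure D3:**
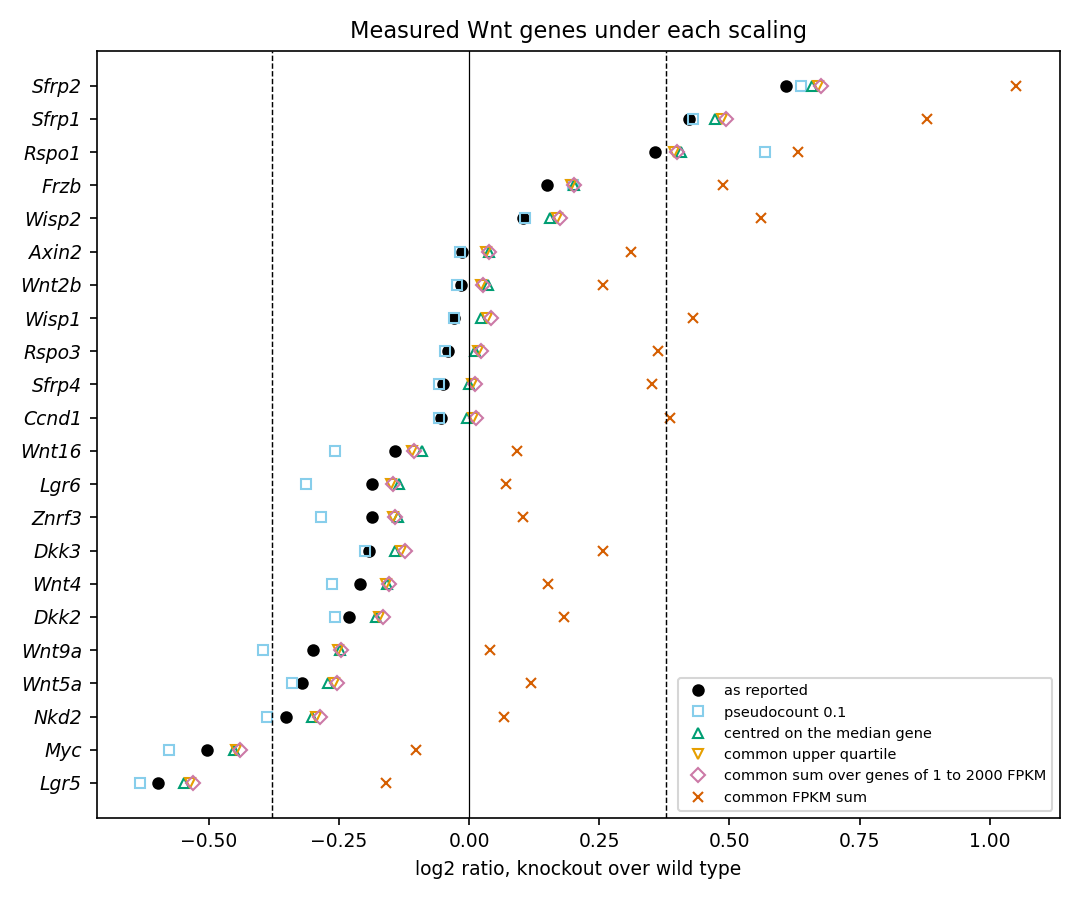
Log2 ratio of each measured Wnt gene as reported (black points) and under 5 other scalings or pseudocounts (other symbols), 1 library per genotype; dashed lines mark 1.3-fold. Sfrp2 is the highest and Lgr5 the lowest under each setting drawn, while a common FPKM sum moves all 22 to the right and leaves Lgr5 and Myc below 0.

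Among the ligands, Wnt5a was the main transcript in both libraries, and no measured ligand gene reached 1.3-fold on the log2 ratio defined above. Wnt5a, a ligand of the non-canonical branch made by many mesenchymal cells, was at 14.8 FPKM in the knockout and 18.7 FPKM in wild type, a log2 ratio of -0.32. It held 63.7% of the summed ligand FPKM in the knockout and 65.3% in wild type, so its predominance was alike in both. Wnt4, known for its roles in kidney and gonad formation, was at 3.13 and 3.77 FPKM (-0.21). Wnt9a, known for its part in joint formation, was at 2.30 and 3.06 FPKM (-0.30). By plain FPKM it was at 75.2% of the wild-type level, and with a pseudocount of 0.1 FPKM its log2 ratio was -0.40, past 1.3-fold.

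Wnt2b was nearly equal at 1.36 and 1.39 FPKM (-0.01), and Wnt16, at the limit of the measured genes, was at 0.915 and 1.11 FPKM (-0.14). All 5 measured ligands were below 0 on the deposited scale, beside 63.1% of all measured genes, with a median of -0.21. Wnt2b turned positive when ratios were centred on the median gene (0.04) or scaled to a common upper quartile (0.02), and on a common FPKM sum all 5 did, with a median of 0.12. Wnt5a was no extreme case, since 6.53% of all measured genes had a log2 ratio at least as low. The other ligand genes were scarce. Wnt5b was at 0.374 FPKM in the knockout and 0.185 FPKM in wild type, Wnt11 at 0.230 and 0.260 FPKM, and Wnt2 at 0.0845 and 0.175 FPKM. Of 11 further Wnt genes (Wnt1, Wnt3, Wnt3a, Wnt6, Wnt7a, Wnt7b, Wnt8a, Wnt8b, Wnt9b, Wnt10a and Wnt10b) none was measured, and their FPKM summed to 0.192 in the knockout and 0.317 in wild type.

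Of the 6 measured secreted antagonists, Sfrp2 and Sfrp1 were higher in the knockout by 1.3-fold or more, and the other 4 did not reach that limit in either direction. Sfrp2 was at 22.7 FPKM in the knockout and 14.6 FPKM in wild type, a log2 ratio of 0.61 and 156% of the wild-type level. Only 0.921% of all measured genes had a ratio as high or higher. Sfrp1 was at 55.4 and 41.1 FPKM, a log2 ratio of 0.42, reached by 2.24% of measured genes. Both encode proteins with a Frizzled-like cysteine-rich domain that binds Wnt ligands.

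Frzb, also called Sfrp3 and known from cartilage, was at 2.77 and 2.40 FPKM (0.15), and Sfrp4 was at 5.99 and 6.24 FPKM (-0.05), nearly equal in both libraries. The 4 genes together summed to 86.9 FPKM in the knockout and 64.3 FPKM in wild type. Dkk3, the most abundant Dickkopf gene and a divergent member of its family, was at 25.1 and 28.9 FPKM (-0.19). Its second row in the table was at 1.59 and 1.23 FPKM, with the opposite order. Dkk2 was at 6.73 and 8.06 FPKM (-0.23). Neither reached 1.3-fold, and both turned positive on a common FPKM sum, Dkk3 to 0.26 and Dkk2 to 0.18.

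Dkk1, a strong inhibitor of canonical signalling, was low, at 0.185 FPKM in the knockout and 0.0492 FPKM in wild type. Wif1, which binds Wnt ligands directly, was listed at 0 in the knockout and at 0.0985 FPKM in wild type. Notum, an enzyme that removes the lipid from Wnt proteins, was at 0.0592 and 0.0551 FPKM. The median log2 ratio of the 6 measured antagonists was 0.05, with 3 above and 3 below 0.

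Ratios within a library do not depend on its scaling. The summed antagonist FPKM was 5.14 times the summed ligand FPKM in the knockout and 3.54 times in wild type. The ratio was therefore 1.45 times as large in the knockout, and 1.3 times without Sfrp1, 1.37 times without Sfrp2, 1.39 times without Wnt5a and 1.10 times without both Sfrp1 and Sfrp2. For the 4 Frizzled-related genes alone the ratio to the ligands was 1.67 times as large, and for Dkk1, Dkk2 and Dkk3 it was 1.07 times. These sums were chosen after the values were seen and have no replicate.

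The window upstream of the Sfrp2 start is shown because Sfrp2 had the highest log2 ratio of the members. It is the 250 bases before the start at chr3:83766071-83766320 on the plus strand, from RefSeq on GRCm38.p6, a later build than the alignment used.
Sfrp2: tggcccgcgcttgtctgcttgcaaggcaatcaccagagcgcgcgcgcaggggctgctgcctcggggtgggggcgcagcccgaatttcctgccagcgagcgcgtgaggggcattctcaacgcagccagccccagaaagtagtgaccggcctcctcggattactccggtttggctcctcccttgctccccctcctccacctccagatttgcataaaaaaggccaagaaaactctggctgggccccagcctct
It holds no TCF/LEF core on either strand, searched as CTTTG followed by a pair of letters that are each A or T, which makes 4 forms. That says only that these letters are not in this window.

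In the R-spondin axis 4 of the 5 measured genes lay below 0, beside 63.1% of all measured genes, and only Lgr5 passed 1.3-fold. The ligand gene Rspo1, close to the measured limit, was the 1 gene above 0. Lgr5, a receptor for R-spondins known as a stem cell marker in epithelia and itself a Wnt target, was at 13.0 FPKM in the knockout and 20.3 FPKM in wild type. The log2 ratio was -0.60, or 64.4% of the wild-type level, and 1.21% of measured genes lay as low or lower. On a common FPKM sum it was -0.16. Its relative Lgr6 was at 1.07 and 1.36 FPKM (-0.19). Lgr4, the broadly expressed receptor of the same family, was at 6.23 and 7.16 FPKM (-0.17), and Lgr5 was 2.09 times Lgr4 in the knockout and 2.83 times in wild type.

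Rspo3, the most abundant R-spondin gene, was nearly equal at 6.01 and 6.20 FPKM (-0.04). Rspo1 was at 1.74 FPKM in the knockout and 1.14 FPKM in wild type, a log2 ratio of 0.36, just under 1.3-fold. It passed that limit with a pseudocount of 0.1 FPKM (0.57), centred on the median gene (0.41) and on a common upper quartile (0.39). Rspo2 was below the measured limit, at 0.789 and 0.289 FPKM, and Rspo4 was at 0.0249 FPKM in the knockout and listed at 0 in wild type. The 4 R-spondin genes summed to 8.57 FPKM in the knockout and 7.64 FPKM in wild type. That sum was 0.657 times the Lgr5 level in the knockout and 0.377 times in wild type. Lgr5 had the lowest log2 ratio of the 22 measured members, so this contrast mostly restates its lower level. The ratios that use Lgr5 were not set in advance and have no replicate. Of the 2 ubiquitin ligase genes that remove Frizzled receptors from the membrane and that R-spondins counteract, Znrf3 was at 1.47 and 1.81 FPKM (-0.19), while Rnf43 was scarce at 0.0663 and 0.0247 FPKM. The median of the 5 measured members of the axis was -0.19, and 0.10 on a common FPKM sum.

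Of the 6 measured target genes, Myc alone passed 1.3-fold on the log2 ratio defined above. Axin2, the feedback gene most often used as a readout of canonical signalling, was at 2.23 FPKM in the knockout and 2.26 FPKM in wild type, a log2 ratio of -0.01. Wisp1 was at 56.3 and 57.5 FPKM (-0.03) and Wisp2 at 40.6 and 37.7 FPKM (0.10). Ccnd1, which encodes the G1 cyclin D1, was at 16.2 and 16.9 FPKM (-0.05). These 4 genes lay between -0.05 and 0.10 on the deposited scale, and all were positive on a common FPKM sum.

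Myc, the growth-promoting transcription factor, was at 5.07 FPKM in the knockout and 7.60 FPKM in wild type. Its log2 ratio of -0.50 was reached downwards by 1.93% of measured genes, and it was -0.10 on a common FPKM sum. Nkd2, an inhibitor that binds Dishevelled, was at 7.51 and 9.87 FPKM (-0.35, and 0.07 on a common FPKM sum). With a pseudocount of 0.1 FPKM it was at -0.39, past 1.3-fold. Its relative Nkd1, just under the measured limit, was at 1.06 and 0.823 FPKM, the opposite order. The TCF/LEF factor genes were low, with Tcf7 at 0.610 and 0.724 FPKM and Lef1 at 0.0958 and 0.178 FPKM. Sp5, a direct β-catenin target of the embryo, was listed at 0 in both libraries. The median of the 6 measured targets was -0.04.

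The windows upstream of Axin2 and Sp5, both textbook targets of β-catenin but the one expressed and the other listed at 0, are shown side by side with the TCF/LEF core letters in capitals. They lie at chr11:108920099-108920348 and chr2:70474673-70474922, both on the plus strand of GRCm38.p6, from RefSeq.
Axin2: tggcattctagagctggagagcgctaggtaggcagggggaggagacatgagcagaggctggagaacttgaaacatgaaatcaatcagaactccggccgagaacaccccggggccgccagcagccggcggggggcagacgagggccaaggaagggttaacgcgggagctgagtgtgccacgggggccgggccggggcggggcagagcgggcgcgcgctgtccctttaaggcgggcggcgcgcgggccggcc
Sp5: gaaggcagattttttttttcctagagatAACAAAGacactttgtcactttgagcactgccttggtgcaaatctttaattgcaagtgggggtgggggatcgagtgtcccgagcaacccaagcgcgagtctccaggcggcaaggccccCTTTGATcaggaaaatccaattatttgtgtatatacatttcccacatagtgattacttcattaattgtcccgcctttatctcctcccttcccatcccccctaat
The Sp5 window holds AACAAAG, which is CTTTGTT on the other strand, 222 bases before the start, and CTTTGAT 104 bases before it, while the Axin2 window holds none. RefSeq windows matched 22 of the 35 members, which leave out Sfrp1, Lgr5 and Myc, all past 1.3-fold, and also Wnt5a, Wisp1, Wisp2 and Ccnd1. At least 1 of the 4 forms was found in windows of 5 of these 22 (Dkk1, Lef1, Sp5, Wnt11 and Wnt5b). By window that was 16.7% of the 30 windows of members, beside 14.8% of all 32851 windows. A match of letters is a description and not a binding site.

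For low members the relative number of fragments can be read from the steps, if the ratio of 1.61 does stand for equal fragment numbers. The FPKM ratio of each low gene was divided by the 1.61 of the depth step and set against ratios of whole numbers up to 20 in wild type. A match within 0.1% was found for 8 of the 10 members with a mean below 1 FPKM that were above 0 in both libraries. The lowest such pairs, of which the real fragment counts may be multiples, were 7 in the knockout against 3 in wild type for Dkk1, 5 against 3 for Rnf43, 5 against 4 for Wnt5b, 2 against 3 for Notum, 3 against 10 for Wnt2 and 1 against 3 for Lef1. Notum, with the higher FPKM in the knockout, had the fewer fragments there. Nkd1 gave 4 against 5 and Wnt11 gave 11 against 20, at the upper end of the search, where a match is the least telling. No fold is given for any of these genes.

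The rest of the pathway lay close to 0 on the deposited scale. Of 99 further pathway genes listed for their roles, 98 were in the table and 66 were measured. Of these, 2 were at least 1.3-fold higher (Pygo1 and Fgf18), 0 were 1.3-fold lower, 40 lay below 0, and the median was -0.05, the same as that of all measured genes. The 2 higher genes are 3.03% of the 66 and the 40 are 60.6%, near the 2.79% and 63.1% of all measured genes. Those 2 counts do not set the pathway genes apart. The 0 lower genes stand beside 4.14% of all measured genes, a share that among 66 would be very few genes. Pygo1, a nuclear partner of β-catenin through BCL9, was at 2.92 FPKM in the knockout and 1.90 FPKM in wild type (0.44). Fgf18, a growth factor gene with β-catenin input, was at 1.67 and 0.999 FPKM (0.42), close to the measured limit. Ctnnb1, the β-catenin gene itself, was at 88.7 and 107.6 FPKM (-0.28), the lowest ratio of the 16 measured genes of β-catenin turnover, followed by Dact1 at -0.26. The highest of them were Dvl3 at 0.18 and Dact3 at 0.14.

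The 14 measured receptor and co-receptor genes had a median of -0.07. Kremen1 and Ptk7 were the lowest, both at -0.31, and Fzd5 the highest at 0.17. Ror2, a receptor for Wnt5a, was at 2.90 and 2.74 FPKM (0.06). All 6 measured planar polarity genes lay below 0, beside 63.1% of all measured genes, with a median of -0.19. Daam2 was at -0.26 (-0.43 with a pseudocount of 0.1 FPKM) and Vangl1 at -0.20. None reached 1.3-fold on the log2 ratio defined above, and 5 of the 6 turned positive on a common FPKM sum. Of the genes that let cells release Wnt proteins, Wls was at 29.8 and 34.2 FPKM (-0.20) and Porcn at 4.31 and 3.85 FPKM (0.13). Among nuclear partners Tle1 was the lowest (-0.21), and Tcf7l2, the most abundant TCF/LEF gene here, was at 7.10 FPKM in both libraries. Of the further targets, Jun was at 0.31 and Cd44 at -0.14, and the secreted modulator gene Cthrc1 was at 0.19.

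**Figure D4:**
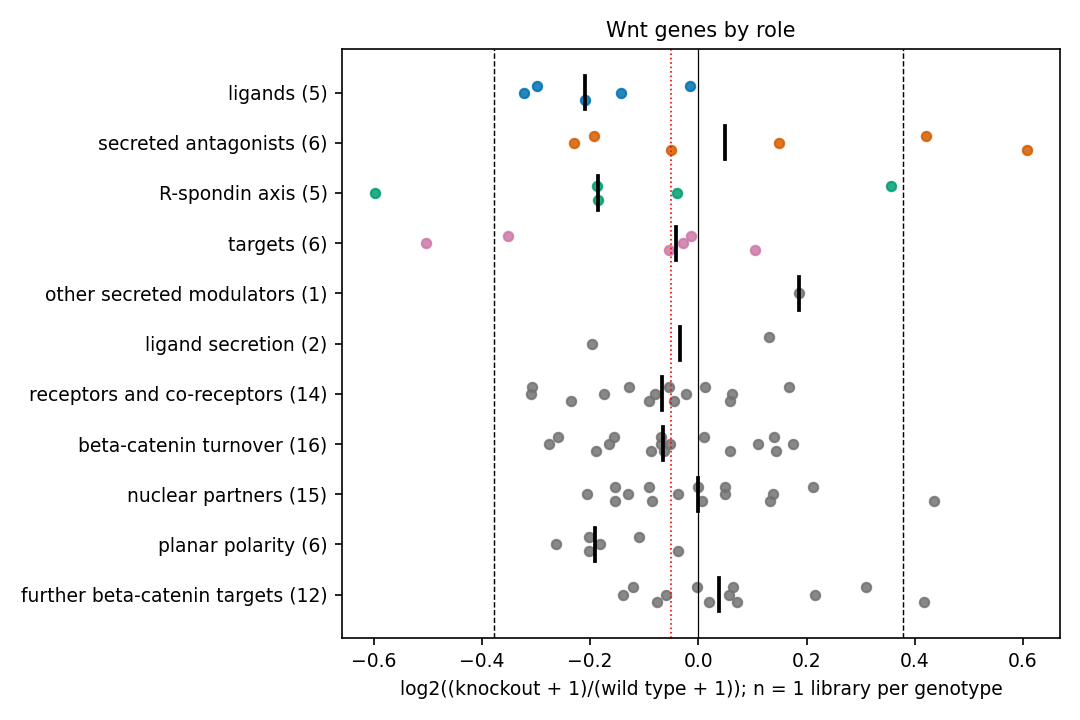
Log2 ratio of knockout over wild type for the measured genes of each role (1 point per gene, number of genes in brackets, coloured for the 4 member groups, grey for other pathway genes); black bars are medians, dashed lines 1.3-fold, and the red dotted line is the median of all measured genes at -0.05. Sfrp1, Sfrp2, Pygo1 and Fgf18 lie beyond the upper dashed line and Lgr5 and Myc beyond the lower one.

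Markers of other cell types also differed between the libraries on the deposited scale. All 14 macrophage markers were measured, with 12 below 0, beside 63.1% of all measured genes. At least 1.3-fold lower were 5 of the 14, beside 4.14% of all measured genes. The median of these markers was -0.26, against -0.05 for all measured genes. Their summed level was 241 FPKM in the knockout and 318 FPKM in wild type. The most abundant were Fcer1g at 52.4 and 77.6 FPKM, Tyrobp at 44.2 and 47.1 FPKM, and Cd14 at 29.1 and 37.0 FPKM. Of 6 adipocyte markers 3 were measured, all below 0 (Lpl -0.37, Fabp4 -0.53, Cd36 -0.43), beside 63.1% of all measured genes. Fabp4 and Cd36 were at least 1.3-fold lower, beside 4.14% of all measured genes, which rests on very few markers. The other adipocyte markers were below the measured limit. Adipoq was listed at 0 in both libraries, Pparg was at 0.274 FPKM in the knockout and 0.298 FPKM in wild type, and Plin1 at 0.0324 and 0 FPKM. Of 7 neural and glial markers 5 were measured, with Fabp7 at 27.2 and 16.5 FPKM (0.69), Tubb3 at 5.57 and 5.19 FPKM (0.09), Gfap at 0.58, and Sox10 at -0.38. Of 8 cartilage and bone markers 3 were measured, with the bone regulator gene Runx2 at 10.3 and 10.4 FPKM (-0.01), the cartilage regulator gene Sox9 at 5.39 and 4.26 FPKM (0.28) and the cartilage collagen gene Col2a1 at 2.76 and 0.265 FPKM (1.57). Of 7 epithelial markers Krt18 was measured (0.01), of 7 endothelial markers Flt1 (-0.14) and of 7 skeletal muscle markers Des (-0.34). In bulk RNA, fewer cells of a type and less RNA per cell cannot be told apart, and the part of these cell types in the Wnt gene differences was not tested.

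The authors' deposited table gives a p-value for each gene, which with 1 library per genotype holds no spread between cultures. In the authors' deposited table, p-values below 0.05 were given to 4 of the 22 measured members, beside 5.6% of all measured genes. They were Lgr5 (0.000306), Sfrp2 (0.000745), Myc (0.00287) and Sfrp1 (0.00622), the same 4 that passed 1.3-fold. Over all 35 members the authors' deposited table gave 6 such values, beside 3.96% of all names, the other two being Wif1 (0.0184) and Rspo2 (0.0461), both below 1 FPKM. For Wnt5a it gave 0.0786, for Nkd2 0.0853, and for Axin2 0.948.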

How the data were processed

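Sequencing libraries were made with the Illumina TruSeq RNA kit from total RNA, per the labels' protocols. Per the series' design text, reads from an Illumina HiSeq 2000 were checked with FastQC and Trimmomatic, aligned with TopHat2 2.0.10 to NCBI mouse build 37.2, quantified with Cufflinks, and compared with Cuffdiff2. Per the file headers, the authors deposited FPKM for each library, and a log2 fold change and a p-value for each gene. One column is headed by the knockout name. The other holds a wild-type mark beside a -/- mark and was taken as wild type from its title, so every direction rests on this reading. The deposited fold change was the knockout column over the other, within 0.001 in all but 29 of 16471 rows above 0 in both. None of the 33 member rows checked differed by more. That does not show which column is wild type.

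From the 25587 rows, 1 row per name was kept (the highest mean), a pseudocount of 1 FPKM was added and log2 ratios were computed in Python 3.11.15 with pandas 2.3.3. The arithmetic was checked on simulated data without noise, with known folds given to highly expressed genes, which says nothing about low levels. No test was run, since each genotype had 1 library. Named genes were all members, Sptbn1, up to 2 measured genes with the highest and 2 with the lowest log2 ratio of each pathway list, and up to 3 genes with the highest mean of each marker list. A few others (Ror2, Lgr4, Tcf7l2, Mir682, Dnaja1, Sox10, Epcam, Pparg, Plin1 and markers listed at 0) were named after their values were seen. Members and lists were chosen with earlier results of these data known. Alternatives were another pseudocount, other scalings and other limits on low values.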

Additional observations from a re-analysis of the deposited data

How the results depend on the processing

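With 1 library per genotype, leaving out a replicate was not possible. No paired analysis was possible because each genotype has a single library. The depth limits genes below 1 FPKM most. Log2 values that moved by at most 0.1, and counts within 1.5 times, are taken as unmoved.

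Scaling both columns to a common FPKM sum moved every summary: Sptbn1 to -0.45, members at least 1.3-fold higher to 7 (from 2), at least 1.3-fold lower to 0 (from 2) and at least 2-fold different to 1 (Sfrp2, from 0), and the medians to 0.26 for all measured members, 0.12 for ligands, 0.42 for antagonists, 0.10 for the R-spondin axis and 0.35 for targets. A pseudocount of 0.1 FPKM gave 4 members at least 1.3-fold lower, with Wnt9a and Nkd2 added. A mean of 5 FPKM or more left 13 members and moved the medians of ligands to -0.32 (Wnt5a alone), antagonists to -0.051 and the R-spondin axis to -0.32. With no limit on low values the R-spondin median was -0.0021. Centring on the median gene, a common upper quartile, and the 2 settings added after the data were seen (a common sum over genes of 1 to 2000 FPKM, and repeated names summed) kept the log2 summaries within 0.1. Under each of them but the last, Rspo1 joined the members at least 1.3-fold higher, which became 3, 5 to 6 of the 22 measured members changed sign, and the median of targets turned positive (0.01, 0.02 and 0.03). No called member changed sign under any scaling or pseudocount tried.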
